A study of Mus musculus with 12 samples.

Results

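Fezf2, Etv1, Tbr1, Foxp2, Bcl11b, Tle4 and Ntsr1 are genes by which projection neurons of the deep cortical layers are recognised, and their transcripts were followed in cortex tissue of mice after binge-like alcohol drinking. The genes were chosen by symbol, and their 7 rows were found among the 33024 gene symbols of the count table. All 7 passed the filter on low counts that left 16059 genes for testing. Wild-type C57BL/6 mice, 30 days old at the start, underwent the 2BC-DID paradigm of voluntary night-time drinking, in which a bottle of 20% (v/v) ethanol and one of water were offered for 12 h in the dark over 35 days, and the vehicle controls drank water. All mice sequenced belonged to Arm #2, in which 14 days of abstinence followed the drinking period. Behavioural tests preceded tissue harvest in both groups, and the brains were perfused with saline before the cortex was taken. RNA of 7 control and 5 ethanol-administered (EtOH) mice was sequenced, each from a separate animal, and sex is not stated in the sources used here.

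The deep layers hold neurons that send axons out of the cortex. In layer 5, extratelencephalic neurons reach the brainstem and spinal cord and intratelencephalic neurons reach other cortex and striatum, while in layer 6 corticothalamic neurons reach the thalamus. During development, transcription factors of these neurons restrain one another, so that FEZF2 and BCL11B (also called CTIP2) mark subcerebral identity and TBR1 marks corticothalamic identity, and several of them stay on in the adult neuron. Some are also used elsewhere: Bcl11b and Foxp2 are transcribed in striatal medium spiny neurons, and Bcl11b and Tle4 in hippocampal neurons. In bulk tissue, fewer cells of a type and less RNA per cell cannot be told apart.

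Positions are those of the Gencode M39 annotation of GRCm39. Fezf2 lies at chr14:10121574-10127680, Etv1 at chr12:38828851-38920483, Tbr1 at chr2:61633274-61644458, Foxp2 at chr6:14901287-15441976 and Ntsr1 at chr2:180141687-180186773, all on the plus strand. Bcl11b at chr12:107876656-107970417 and Tle4 at chr19:14425417-14575572 lie on the minus strand. All are protein coding, and their merged exons run from 3695 bases in Fezf2 to 17281 in Foxp2. Ntsr1 was the member whose exons overlap other genes, the opposite-strand non-coding RNAs Gm74528 and Gm75727, which cover 301 and 8 bases of them. Without knowledge of the strand setting, reads in the 301 bases, 7.53% of the Ntsr1 exon length, could not be assigned with certainty.

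Upstream sequences from RefSeq (GRCm39; 250 bases before an annotated start) were available for 6 of the 7 members, in 8 windows. The stretches free of annotated exons are printed 5′ to 3′ for Etv1 and Ntsr1, both higher in EtOH mice, and for Tle4, whose groups overlapped. Capitals mark matches to a GC box (GGGCGG) or CCAAT on either strand.
Etv1, chr12:38829831-38830080, plus strand: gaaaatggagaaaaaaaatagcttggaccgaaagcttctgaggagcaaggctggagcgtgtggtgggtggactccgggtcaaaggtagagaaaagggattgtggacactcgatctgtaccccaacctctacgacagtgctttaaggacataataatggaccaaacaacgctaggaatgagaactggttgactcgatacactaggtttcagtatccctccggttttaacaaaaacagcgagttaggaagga
Ntsr1, chr2:180141519-180141686, plus strand: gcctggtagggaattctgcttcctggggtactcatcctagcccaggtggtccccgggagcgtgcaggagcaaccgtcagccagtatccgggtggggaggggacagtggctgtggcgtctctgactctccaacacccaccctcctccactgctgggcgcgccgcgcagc
Tle4, chr19:14575573-14575797, minus strand: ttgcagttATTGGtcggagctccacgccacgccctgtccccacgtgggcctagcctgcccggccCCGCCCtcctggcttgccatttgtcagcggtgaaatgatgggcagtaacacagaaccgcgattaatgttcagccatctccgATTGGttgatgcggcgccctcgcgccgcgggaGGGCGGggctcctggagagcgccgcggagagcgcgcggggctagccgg
The full Etv1 window had a GC content of 46.4%, against 68.4% for Ntsr1, 65.2% for this Tle4 window and a median of 52.4% over 32851 RefSeq windows of the same length. The Tle4 stretch held 2 GC boxes and 2 CCAAT matches, where the Etv1 and Ntsr1 stretches held none. GC boxes also occurred once each in the windows of Fezf2, Tbr1 and the other Tle4 start, and TATAAA once at the other Etv1 start. Of all windows 32.7% held a GC box, 33.8% CCAAT and 12.4% TATAAA. The T-box letters AGGTGTGA (1.12% of all windows), the forkhead letters GTAAACA (3.17%) and the ETS letters CCGGAAGT (2.88%), looked for because TBR1, FOXP2 and ETV1 belong to these factor families, were in none of the 8 member windows on either strand. No match overlapped another.

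The libraries held between 31768092 and 40690235 counts in controls (median 32166783, n = 7) and between 32048734 and 42183041 in EtOH mice (median 32947654, n = 5). At this depth 3 counts correspond to 0.0711 to 0.0944 CPM (counts scaled to library depth), far below every member. Genes were called different between groups at a Benjamini-Hochberg adjusted p under 0.05 in edgeR's quasi-likelihood test and a log2 fold change that exceeded 0.5 in either direction. TMM normalization factors lay between 0.982 and 1.02. The groups differed in transcripts of regions beside the cortex. All 16 listed striatal genes, such as the dopamine receptor gene Drd2 and the enkephalin gene Penk, were called lower in EtOH mice, with summed levels of 1564 to 3351 CPM in controls and 440.0 to 524 CPM in EtOH mice. None of the 16 was at 3 counts or fewer in every mouse. All 8 listed hippocampal genes, such as the dentate granule cell gene C1ql2, were called higher, with sums of 29.7 to 37.1 CPM in controls and 142 to 190.2 CPM in EtOH mice. Genes of excitatory neurons at large, such as Slc17a7 and Camk2a, gave no call in 5 and a median log2 fold change of 0.16. What part these regional differences had in the members' values was not tested.

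Levels between genes were compared as counts per kilobase of merged exons after depth scaling (RPKM, CPM divided by the length in kilobases). In controls Tbr1 had the highest mean level among the members, 34.7 RPKM, followed by Bcl11b at 13.9, Fezf2 at 11.2, Tle4 at 10.5, Etv1 at 5.45, Ntsr1 at 2.20 and Foxp2 at 1.53 RPKM. Of 15631 genes with a known length, 94.7% had a lower control mean than Tbr1 and 35.1% a lower one than Foxp2. Bcl11b exceeded Fezf2 in 5 of 7 control mice and Fezf2 exceeded Tle4 in 4 of 7, so these neighbours were not set apart, whereas Tbr1 over Bcl11b, Tle4 over Etv1 and Etv1 over Ntsr1 held in 7 of 7. Ntsr1 exceeded Foxp2 in 6 of 7. In EtOH mice Fezf2, at 17.1 RPKM, stood above Bcl11b, at 10.1 RPKM, in 5 of 5 mice. The other neighbours kept their control order on average, with Bcl11b over Tle4 in 3 of 5 mice and every other step in 5 of 5.

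Against the controls, EtOH mice had more RNA of Fezf2, Etv1 and Ntsr1 and less of Foxp2. Bcl11b and Tbr1 were lower by less than the fold minimum, and Tle4 did not pass the test. The test called 3 of 7 members higher, where 4.2% of all 16059 genes were called higher (674), and 1 of 7 lower, where 4.09% were (657). Every EtOH mouse lay above every control for 3 members, as for 4.84% of all genes, and below every control for 2, as for 4.96%. The median log2 fold change was -0.10 over the members and 0.00 over all genes, since the members moved in both directions.

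**Figure D1:**
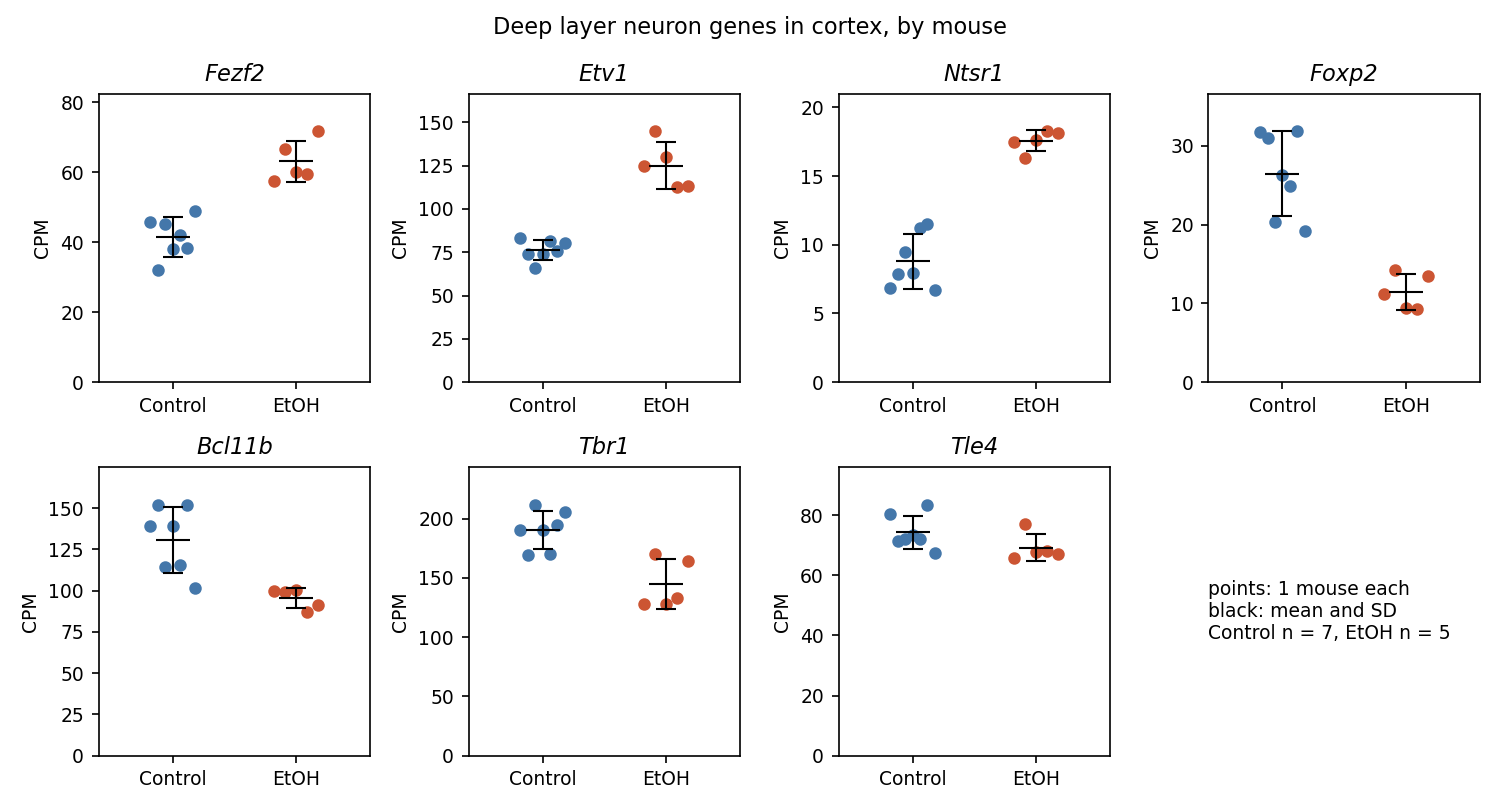
Level of each deep layer gene in CPM in every mouse, with 1 panel per gene, 1 point per mouse (7 Control, 5 EtOH) and bars for the mean and SD. The EtOH points of Fezf2, Etv1 and Ntsr1 lie above all Control points and those of Foxp2 and Bcl11b below them, while those of Tbr1 and Tle4 overlap.

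Fezf2 encodes the zinc finger factor that sets the subcerebral fate of layer 5 neurons. Its level in controls ran from 32.2 CPM to 48.8 CPM with a median of 42.2 CPM, and the EtOH mice had 57.6, 66.7, 60.1, 59.5 and 71.8 CPM (mice 1 to 5). The lowest EtOH mouse was thus above the highest control. The mean went from 41.5 ± 5.70 CPM (SD, n = 7) to 63.1 ± 5.92 CPM (SD, n = 5), which gave a log2 fold change of 0.60 (SE 0.09, adjusted p = 0.0001) or 1.52-fold.

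Bcl11b encodes the factor downstream of FEZF2 through which subcerebral axons are guided, and its values went the other way. Controls ran from 101.9 CPM to 152 CPM with a median of 139 CPM, and EtOH mice 1 to 5 had 99.7, 99.0, 100.2, 86.8 and 91.4 CPM. All EtOH mice lay below all controls, although the highest EtOH mouse, mouse 3, came close to the lowest control, control 7. The mean was 130.6 ± 19.9 CPM (SD, n = 7) in controls and 95.4 ± 6.01 CPM (SD, n = 5) in EtOH mice. The log2 fold change of -0.45 (SE 0.09, adjusted p = 0.00177) passed the p threshold and missed the fold minimum. Without control 7 it was -0.50, just past the minimum, and Bcl11b was then called lower. The striatal sums were lower in the same EtOH mice, and their part in this change was not tested.

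Etv1 (also called Er81) encodes an ETS factor of layer 5 neurons. Controls had between 65.7 and 83.0 CPM (median 75.4 CPM), and EtOH mice 1 to 5 had 125, 145, 129.8, 112 and 113 CPM. Again no EtOH mouse reached down to a control, with EtOH mouse 2 the highest. Etv1 rose from 76.3 ± 5.95 CPM (SD, n = 7) to 125 ± 13.3 CPM (SD, n = 5), which gave a log2 fold change of 0.71 (SE 0.07, adjusted p = 1.21e-06), the smallest p among the members, or 1.64-fold.

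Tbr1 encodes the T-box factor that gives layer 6 neurons their corticothalamic fate. Its level was 169 CPM to 212 CPM in controls (median 191 CPM), and in EtOH mice 1 to 5 it was 128, 170.2, 128, 133 and 165 CPM. Mice 1, 3, 4 and 5 of the EtOH group were below every control, and mouse 2 fell among the lowest controls. The mean was 190.4 ± 16.05 CPM (SD, n = 7) against 145 ± 20.8 CPM (SD, n = 5). The log2 fold change of -0.40 (SE 0.08, adjusted p = 0.00222) did not reach the fold minimum.

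Foxp2 encodes a forkhead factor of layer 6 corticothalamic neurons and of medium spiny neurons. Controls had 19.1 CPM to 31.9 CPM with a median of 26.3 CPM, and EtOH mice 1 to 5 had 11.1, 14.2, 9.36, 9.22 and 13.4 CPM. The groups did not overlap, and the spread relative to the mean was alike in both, with a coefficient of variation of 20.3% in controls and 19.97% in EtOH mice. Foxp2 fell from 26.5 ± 5.37 CPM (SD, n = 7) to 11.5 ± 2.29 CPM (SD, n = 5), which gave a log2 fold change of -1.21 (SE 0.15, adjusted p = 1.43e-05) and the largest among the members, 2.31-fold lower. The striatal sums differed between groups in the same direction, and their part in this change was not tested.

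Tle4 encodes a Groucho-type corepressor of corticothalamic neurons that acts with FEZF2. Controls ran from 67.3 CPM to 83.5 CPM (median 72.1 CPM) and EtOH mice 1 to 5 had 65.8, 77.0, 67.9, 68.0 and 67.1 CPM. EtOH mouse 2 lay well inside the controls and the others near their lower end. With means of 74.3 ± 5.62 CPM (SD, n = 7) and 69.2 ± 4.46 CPM (SD, n = 5), the log2 fold change of -0.10 (SE 0.06, adjusted p = 0.227) did not pass the test.

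Ntsr1 encodes the high-affinity neurotensin receptor, best known in cortex for the Cre line that targets layer 6 corticothalamic neurons. Controls had 6.67 CPM to 11.5 CPM (median 7.94 CPM), and EtOH mice 1 to 5 had 17.5, 16.3, 17.7, 18.3 and 18.1 CPM. All EtOH mice were far above the highest control and close to each other, with a coefficient of variation of 4.42% against 22.6% in controls. Ntsr1 rose from 8.80 ± 1.99 CPM (SD, n = 7) to 17.6 ± 0.775 CPM (SD, n = 5), which gave a log2 fold change of 0.99 (SE 0.12, adjusted p = 1.83e-05) or 1.99-fold. Its ligand gene Nts ran from 0.192 CPM in control 7 to 11.8 CPM in control 2 and from 2.43 to 4.29 CPM in EtOH mice (log2 fold change -0.70, adjusted p = 0.273). Without control 7 Nts was called lower, with the lowest fold change of any mouse left out, -0.91. The second receptor gene Ntsr2, which astrocytes transcribe, was at 124 ± 9.02 CPM (SD, n = 7) in controls and 125 ± 7.96 CPM (SD, n = 5) in EtOH mice (log2 fold change 0.01).

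With no fold minimum, 3 members were higher (12.1% of all genes, 1947) and 3 lower (11.6%, 1863), the latter being Tbr1, Foxp2 and Bcl11b.

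The log2 ratio of 1 member to another in the same mouse does not depend on the scaling of the library. All 21 pairs were compared between groups by exact permutation of the group labels over all ways of choosing 5 of 12 mice (two-sided), adjusted over the 21 pairs. The groups did not overlap in 15 pairs, against 10.7% of all pairs of tested genes. In 6 of the 15, Fezf2, Etv1 or Ntsr1 over Foxp2 or Bcl11b, this follows from the single genes, whose groups lay apart in opposite directions, and adds nothing to them. An adjusted p under 0.05 was found in 17 pairs, and 13 reached the smallest p that the test can give (0.00126, adjusted 0.00204). The 6 pairs that follow from the single genes are all among the 17. Except for Fezf2 over Bcl11b, they are also among the 13. The widest difference was in Foxp2 over Ntsr1, both layer 6 genes and a pair among the 6. Their log2 ratio was 1.59 ± 0.41 (SD, n = 7) in controls and -0.63 ± 0.33 (SD, n = 5) in EtOH mice. In controls Foxp2 thus had more counts than Ntsr1, and in EtOH mice fewer. Per kilobase of exons, Ntsr1 was above Foxp2 on average in both groups. The means were 2.20 against 1.53 RPKM in controls and 4.39 against 0.664 RPKM in EtOH mice.

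Between layer 5 factors, Fezf2 over Bcl11b went from -1.65 ± 0.41 to -0.60 ± 0.17 on the log2 scale (SD, exact permutation p = 0.00253, adjusted 0.00354). This pair is among the 6 that follow from the single genes. The striatal sums were lower in the same EtOH mice, and their part in this ratio was not tested. Between the subcerebral and the corticothalamic factor, Fezf2 over Tbr1 went from -2.20 ± 0.16 to -1.19 ± 0.10, without overlap. Among members that were lower, Foxp2 over Bcl11b dropped by 0.76 and Tbr1 over Foxp2 was 0.79 higher in EtOH mice, so that Foxp2 was reduced by more than both. Tle4 parted from Tbr1 as well, since Tbr1 over Tle4 differed by -0.30 with overlapping groups (exact permutation, adjusted p = 0.0156). Bcl11b over Tle4 differed by -0.34, also with overlapping groups (exact permutation, adjusted p = 0.00663).

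In 4 pairs the ratio did not pass the exact permutation test. Within the members that rose, the difference was -0.10 for Fezf2 over Etv1 (adjusted p = 0.439), -0.41 for Fezf2 over Ntsr1 (adjusted p = 0.0751) and -0.31 for Etv1 over Ntsr1 (adjusted p = 0.131). For Tbr1 over Bcl11b it was 0.04 (adjusted p = 0.816), with SDs of 0.30 in controls and 0.23 in EtOH mice. A p above the threshold does not show that these pairs changed alike.

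**Figure D2:**
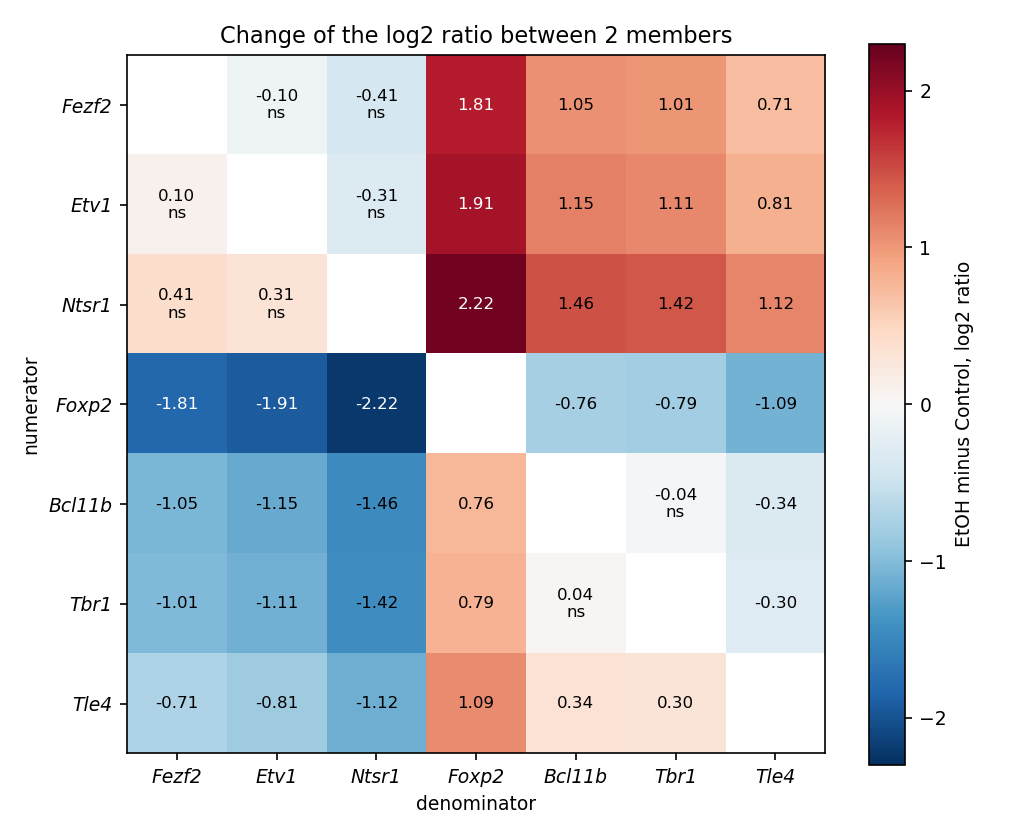
Heat map of the difference between groups (EtOH minus Control) in the log2 ratio of the row gene to the column gene for all 21 pairs of members. Cells marked ns had an adjusted p of 0.05 or above in the exact permutation test; the largest difference is the -2.22 of Foxp2 over Ntsr1, and 4 pairs are marked ns.

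Other genes of the deep layers were mixed too. Of 36 genes in 6 lists of deep layer neuron classes, all tested, 10 were called higher and 8 lower, with a median log2 fold change of 0.07 and 19 positive against 17 negative values. Genes of layer 5 extratelencephalic neurons gave 3 higher and none lower of 9 (median 0.15): the natriuretic peptide clearance receptor gene Npr3 (log2 fold change 0.77), Parm1 (0.68) and the nicotinic receptor subunit gene Chrna6 (1.47, from 0.273 to 0.755 CPM). Layer 5 intratelencephalic genes gave 4 higher and 1 lower of 8 (median 0.20). Those higher were Whrn (0.67), Tox2 (0.62), the glucocorticoid-activating enzyme gene Hsd11b1 (0.76) and Endou (0.90), and the collagen gene Col6a1 was lower (-0.94).

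Near-projecting neurons of layers 5 and 6, which send axons only locally, gave 3 higher and 1 lower of 4 listed genes (median 1.11). Tshz2, a zinc finger gene that defines the class, went from 29.6 ± 3.83 CPM (SD, n = 7) to 97.9 ± 28.2 CPM (SD, n = 5), which gave a log2 fold change of 1.72 (adjusted p = 2.9e-07). Trhr, the receptor gene for thyrotropin-releasing hormone (1.33, with overlapping groups), and Lypd1 (0.90) were higher, and the vesicular glutamate transporter gene Slc17a8 was lower (-0.68, with overlapping groups). The hippocampal sums were higher in the same mice, and their part in these changes was not tested.

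In the lists of layer 6 corticothalamic, layer 6 intratelencephalic and layer 6b genes, which hold no member, the calls were on the lower side. The striatal list was lower in the same mice (16 of 16, median log2 fold change -2.93), and the part of the striatal difference was not tested. Of 7 corticothalamic genes 3 were called lower and none higher (median -0.40): the synaptotagmin gene Syt6, from 68.8 ± 10.4 CPM (SD, n = 7) to 16.5 ± 2.47 CPM (SD, n = 5), with a log2 fold change of -2.06, the keratin gene Krt80 (-1.83) and the orphan receptor gene Gpr139 (-1.28, with overlapping groups). The corticothalamic genes Rprm (0.20, adjusted p = 0.0734), Hs3st4 (0.18, adjusted p = 0.0484) and Nxph3 (0.10, adjusted p = 0.269) were not called and had positive values, and Sla was not called at a negative value (-0.40, adjusted p = 0.0573), but was called lower without EtOH mouse 4 (-0.51). Foxp2 and Ntsr1, both genes of this class, were thus called in opposite directions. Layer 6 intratelencephalic genes gave 2 lower of 4 (median -0.86), the kappa opioid receptor gene Oprk1 (-1.92) and the heparan sulfatase gene Sulf1 (-0.92, with overlapping groups). Osr1 of this list was not called (0.44, adjusted p = 0.134), but was called higher without EtOH mouse 2. Of 4 layer 6b genes Nxph4 was called lower (-0.75, with overlapping groups), and the median was 0.10. For the upper layers, 2 of 10 genes were called higher (Unc5d 0.76, Mdga1 0.70 with overlapping groups) and 2 lower (Inhba -1.43, Stard8 -0.75), with a median of 0.13.

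**Figure D3:**
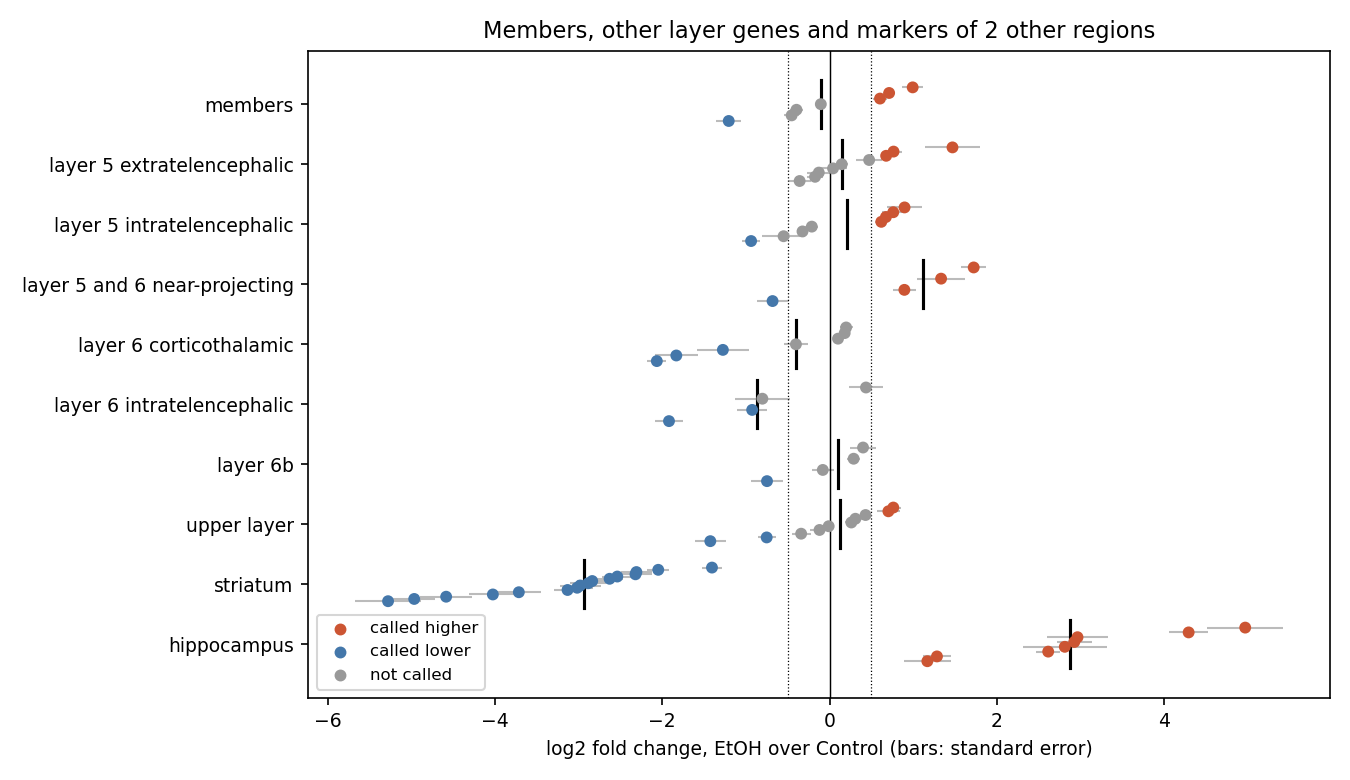
Log2 fold change of EtOH against Control for each tested gene of the members' list and of the deep layer, upper layer, striatal and hippocampal lists. Each gene is 1 point, with the list median as a black tick and dotted lines at the fold minimum of 0.5 in either direction. Members and deep layer lists spread to both sides of 0, the striatal list lies wholly below it and the hippocampal list wholly above it.

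Partners of the members in projection neuron specification gave 1 call. Of 12 tested, Bhlhe22, which encodes a basic helix-loop-helix factor that shapes cortical area identity, was called higher, from 34.3 ± 3.23 CPM (SD, n = 7) to 66.7 ± 6.40 CPM (SD, n = 5), with a log2 fold change of 0.96 (adjusted p = 9.59e-08), and none was called lower (median 0.12). Nr2f1, another area factor gene, was at 0.49 (adjusted p = 8.93e-06), under the fold minimum, which it passed without control 3, control 7 or EtOH mouse 1. Sox5, a factor gene of corticofugal neurons, was at -0.10 (adjusted p = 0.388).

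Among relatives of the members and the ligand gene, 16 were listed and 14 tested, of which 2 were called lower and none higher (median -0.04). Foxp1, the forkhead relative of Foxp2 that cortex and striatum share, went from 132.9 ± 12.6 CPM (SD, n = 7) to 87.2 ± 8.15 CPM (SD, n = 5), which gave a log2 fold change of -0.61 (adjusted p = 1.24e-05). Foxp4 was at 0.09 (adjusted p = 0.384). The Tbr1 relative Eomes was called lower (-4.25, adjusted p = 0.0025), but its controls were uneven: 0.125, 7.87, 0.189, 5.69, 3.27, 1.02 and 1.80 CPM in controls 1 to 7, and 0.0910 to 0.278 CPM in EtOH mice. Controls 1 and 3 were therefore at the level of the EtOH mice, and Eomes was called in the 7 of 12 fits that left out 1 mouse and in which it passed the low count filter. It did not pass that filter without any 1 of controls 2, 4, 5, 6 and 7, and limma voom did not call it (-3.24, adjusted p = 0.104). The Bcl11b relative Bcl11a was at 0.26 (adjusted p = 0.0018), a value of opposite sign to that of Bcl11b, and the Tle4 relatives Tle1, Tle2, Tle3, Tle5 and Tle6 gave no call, with values from -0.27 for Tle5 to 0.17 for Tle2.

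Among the 7 control mice, which share a treatment, the members were set against a striatal score, the mean log2 CPM of the 16 striatal genes. The score was 5.34 in control 7 and 6.55 in control 2, the lowest and highest of the group, with an exact permutation of all pairings as test (two-sided) and adjustment over 14 relations with the striatal and the hippocampal score. Bcl11b went with the striatal score (Pearson r = 0.95, exact permutation p = 0.00119, adjusted 0.0167, Spearman rho = 0.93, p = 0.00675, adjusted 0.0944). Foxp2 had r = 0.86 (exact permutation p = 0.00813, adjusted 0.0569) and rho = 0.86 (exact permutation p = 0.0238, adjusted 0.167). Fezf2 had a negative coefficient, r = -0.80 (exact permutation p = 0.0313, adjusted 0.11) and rho = -0.68 (exact permutation p = 0.11, adjusted 0.383). Without controls 5 and 7, the mice farthest from the median score, r was 0.93 for Bcl11b, 0.82 for Foxp2 and -0.84 for Fezf2 over 5 mice. The other coefficients with the striatal score depended on those mice: r went from -0.45 (exact permutation p = 0.305) to -0.95 for Tbr1, from -0.23 (exact permutation p = 0.6) to 0.50 for Etv1 and from 0.59 (exact permutation p = 0.161) to 0.07 for Tle4.

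Bcl11b was the 1 relation of 14 that passed the adjusted Pearson test, and 0 passed the adjusted Spearman test, with 4 at an unadjusted Pearson p under 0.05. Ntsr1 had r = 0.19 (exact permutation p = 0.72) with the striatal score and -0.17 without controls 5 and 7. With the hippocampal score Ntsr1 had r = 0.81 (exact permutation p = 0.0244, adjusted 0.11) and rho = 0.79 (exact permutation p = 0.048, adjusted 0.224), and r = 0.63 without controls 5 and 7. Coefficients over the 5 EtOH mice were not computed, since relations were limited to groups of at least 6 mice.

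**Figure D4:**
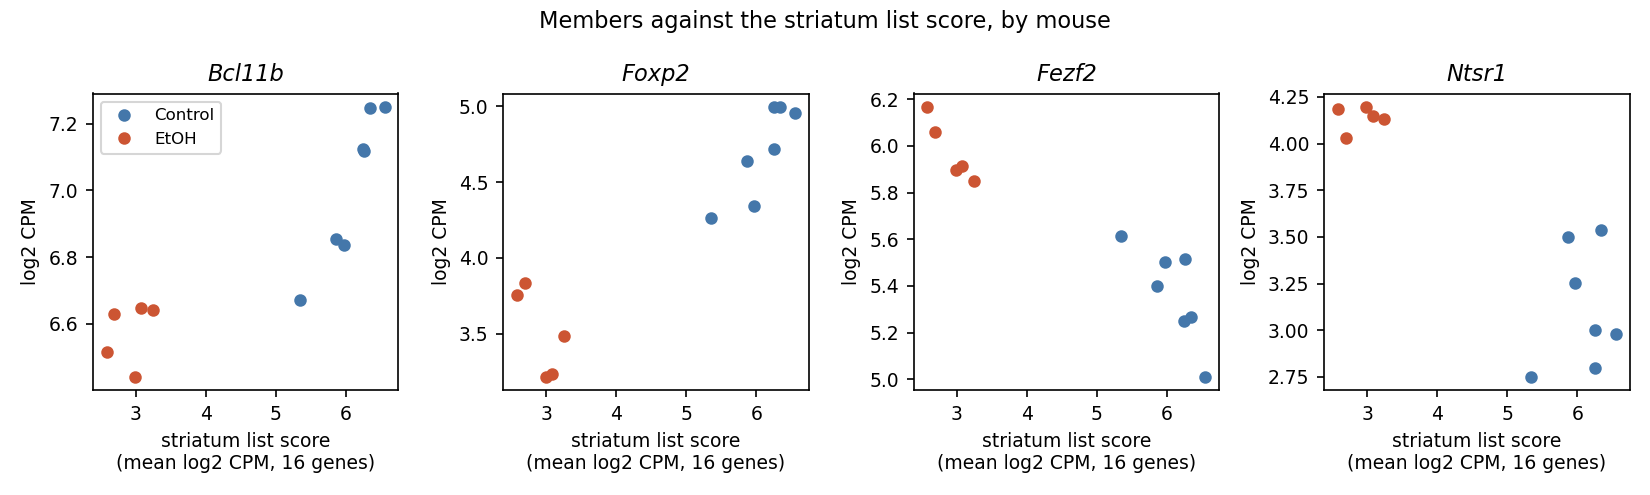
Log2 CPM of Bcl11b, Foxp2, Fezf2 and Ntsr1 (vertical axis) against the striatal score (mean log2 CPM of 16 striatal genes, horizontal axis). Each of these genes has a panel with 1 point per mouse (7 Control, 5 EtOH), and the other members are not drawn. Within the Control points Bcl11b and Foxp2 are higher where the score is higher (r = 0.95 and 0.86), and the EtOH points stand apart at scores near 2.92.

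Once group means were removed, members also differed in how they varied over the 12 mice, given here as a description over libraries that share their tissue label and depth range. The highest coefficients between members were Foxp2 with Bcl11b (r = 0.74), Fezf2 with Tbr1 (r = 0.69) and Foxp2 with Tle4 (r = 0.68), and the lowest was Fezf2 with Bcl11b (r = -0.68). Among 14172 genes of at least 1 CPM on average, those most like Foxp2 were the phosphodiesterase gene Pde7b (r = 0.92, log2 fold change -1.52) and the corticothalamic gene Syt6 (r = 0.92, log2 fold change -2.06). Those most like Bcl11b were Tomm70a (r = 0.95) and the netrin gene Ntn1 (r = 0.93), with log2 fold changes of -0.34 and -0.65. For the other members the most alike genes were Herc3 (0.95) and Tmem97 (0.88) for Fezf2, Yae1d1 and Prkd3 (both 0.90) for Etv1, Wdr95 (0.94) and Cd34 (0.92) for Tbr1, Galnt12 (0.93) and Bach2 (0.87) for Tle4, and 4933404O12Rik (0.93) and 6530402F18Rik (0.90) for Ntsr1. The log2 fold changes of these were near 0 for Herc3 and Tmem97 (both -0.04), Yae1d1 (-0.07), Prkd3 (0.07), Cd34 (0.04) and Wdr95 (-0.11), and were -0.58 for Galnt12 (adjusted p = 0.0683), 0.18 for Bach2, 0.16 for 4933404O12Rik and 0.47 for 6530402F18Rik.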

How the data were processed

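RNA of cortex tissue from 12 mice was sequenced by BGI. Per the submitters' processing notes and the methods, the authors checked reads with FastQC 0.11.9, aligned them to GRCm39 with STAR, counted them with featureCounts and compared groups with DESeq2; strand and multi-mapping settings are not given in the sources used here. The authors deposited expected counts per gene symbol without normalization; 61 symbols hold values that are not whole, and none of these is a member. Counts were rounded. All columns were matched to a mouse by name (0 unmatched).

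Genes passing filterByExpr were fitted with TMM factors and edgeR's quasi-likelihood test (R 4.3.3, edgeR 4.0.16, limma 3.58.1), with Benjamini-Hochberg adjustment over all 16059 genes. The standard error is the log2 fold change over the square root of F. CPM values use TMM library sizes, and log2 CPM a prior count of 2. Same-group libraries differed by at least 7.84 chi-square per degree of freedom over 31 pairs, so none was counted as a duplicate.

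Members and gene lists were chosen with earlier results of these data known. Named are all members, list genes that were called (up to 8 a list, by smallest p) and the 2 genes most like each member; list genes without a call were named as context after their values were seen. Alternatives were DESeq2 1.42.0, limma voom, other scaling factors, filters and fold minimums, a replicate block, a prior count of 0.5 and each mouse left out. The fits were tested on simulated data. Some list genes are not reported here by name and remain in the counts.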

Additional observations from a re-analysis of the deposited data

Results flagged for a closer look

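Tle4 in EtOH mouse 2, at 6.27 log2 CPM, was the highest of its group, and the nearest EtOH mouse was at 6.09. Its gap to that mouse, divided by the range of the group, was 0.796, above Dixon's critical value of 0.71 for 5 mice. The value lies inside the control range of 6.07 to 6.39 log2 CPM. The members and the striatal and hippocampal scores were looked at in both groups, 18 checks in all, of which chance flags about 1 in 20.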

How the results depend on the processing

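Over 23 settings, 277 of 287 alternative values for the members, their ratios and relations, all genes and the other deep layer genes were the same and none reversed, where a member's fold change counts as the same with its direction and side of the threshold kept, and a count of genes, ratio pairs or relations when within 1.5 times the main count. Without control 7, Bcl11b was called at -0.50, so that 2 members were lower. With no fold minimum, 1947 genes were higher, 1863 lower and 3 members lower. With a log2 fold change above 1, 0 members were called higher, 242 genes were higher and 282 lower, and 3 and 4 other deep layer genes were higher and lower.

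Leaving out each mouse gave log2 fold changes of 0.55 to 0.65 for Fezf2, 0.65 to 0.74 for Etv1, 0.94 to 1.07 for Ntsr1, -1.30 to -1.14 for Foxp2, -0.50 to -0.41 for Bcl11b, -0.47 to -0.35 for Tbr1 and -0.15 to -0.07 for Tle4. Members called higher stayed at 3 and those lower at 1 to 2, all genes called higher ranged from 576 to 784 and lower from 586 to 726, other deep layer genes from 10 to 12 and 8 to 9, and ratio pairs from 17 to 18. Mbp lost its call without any of 5 mice and Mobp without any of 3.

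The mouse numbers do not pair the mice: deviations of same-numbered mice correlated at -0.11 to 0.02 over 5 pairs, none above 0.1, and 0 of 5 mice were most like their own number. With the number as a replicate block, calls were 3 higher and 1 lower among members, 690 and 634 among all genes and 10 and 8 among other deep layer genes. The log2 fold changes with the replicate block were 0.64 for Fezf2, 0.72 for Etv1, -0.37 for Tbr1, -1.23 for Foxp2, -0.46 for Bcl11b, -0.10 for Tle4 and 1.03 for Ntsr1, with no call changed among them.

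Over 20 other fits the highest adjusted p was 0.000778 for Fezf2, 0.00013 for Etv1, 0.000106 for Ntsr1 and 0.000167 for Foxp2. Of 880 counts of calls in the gene lists 55 lay outside 1.5 times the main count, 27 of them by the fold minimum; smaller shifts of a count are not among the 55. Depth does not limit the members, but Chrna6, Eomes, Tbx21 and Fezf1 rest on few counts, and the last 2 were not tested.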

Other observations

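Other cell classes in the same libraries gave fewer calls than the striatal and hippocampal lists. Of 4 claustral genes found in the table, the orphan nuclear receptor gene Nr4a2 rose from 34.0 ± 4.71 CPM (SD, n = 7) to 123 ± 39.6 CPM (SD, n = 5), with a log2 fold change of 1.86, and Lxn was higher by 0.58. The summed claustral level was 112 to 135 CPM in controls and 157 to 272 CPM in EtOH mice. Of 5 thalamic genes tested, the vesicular glutamate transporter gene Slc17a6 was higher (1.08) and Tnnt1 lower (-1.15, with overlapping groups), and sums were 33.4 to 42.3 CPM and 42.8 to 60.0 CPM.

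Of 6 interneuron genes, the GABA synthesis gene Gad2 was called lower (-0.63), and sums were 842 to 1105 CPM and 717 to 771 CPM. Of 6 oligodendrocyte genes, the myelin genes Mbp (-0.50) and Mobp (-0.52) were called lower with overlapping groups, with sums of 4285 to 5703 CPM and 2872 to 5139 CPM. Of 5 astrocyte genes, Gfap was called higher (0.77). No gene was called among 5 of microglia, 5 of endothelium and blood and 4 of neurons at large, with medians of -0.15, -0.04 and -0.27. The complement gene C1qa of microglia was called lower without control 5 (-0.54), control 6 (-0.50) or EtOH mouse 2 (-0.53), and the haemoglobin gene Hbb-bs was called higher without control 6 (1.46) and, with Hba-a1 (0.80), under the replicate block (1.21). Every EtOH mouse had a lower pan-neuronal, microglial and interneuron score (mean log2 CPM of the list) than every control, and a higher astrocyte and claustral score, with astrocyte sums of 791 to 890 CPM in controls and 960 to 1063 CPM in EtOH mice.

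The Tbr1 relatives Eomes and Tbx21 were both high in controls 2, 4, 5 and 7. Tbx21 was at 1.78 CPM in control 2, 1.19 in control 4, 0.586 in control 5 and 0.962 in control 7, against 0.0631 to 0.191 CPM in controls 1, 3 and 6 and 0 to 0.156 CPM in EtOH mice. Control 6 had 1.02 CPM of Eomes, against 0.125 and 0.189 CPM in controls 1 and 3. Tbx21 did not pass the low count filter.

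The 8 striatal genes with the smallest p had log2 fold changes of -4.97 for Drd2, -3.13 for Rgs9, -3.02 for Scn4b, -2.63 for Ppp1r1b, -2.84 for Gpr6, -2.05 for Pde10a, -4.58 for Adora2a and -3.72 for Penk. Hippocampal genes were higher by 1.29 for Prox1, 4.97 for Dsp, 2.62 for Fibcd1, 4.29 for C1ql2, 2.97 for Lct, 1.17 for Tdo2 (with overlapping groups) and 2.81 for Iyd on the log2 scale.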
